A study of Rattus norvegicus with 12 samples.

Results

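The 9 genes Gria1, Gria2, Gria3, Gria4, Grik1, Grik2, Grik3, Grik4 and Grik5 encode the pore-forming subunits of the AMPA and kainate receptors, and their RNA was measured in ventral dentate gyrus of male rats. They were chosen by gene name, as all members of these 2 receptor families, out of 17172 genes in the count files. All 9 were found there, and all 9 passed the filter on low counts that kept 11750 genes for testing. Every rat belonged to 1 of 2 Flinders lines, which the labels place under the strain Sprague-Dawley. The Flinders Sensitive Line (FSL) serves as a rat model of depression, with the Flinders Resistant Line (FRL) as its control.

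There were 12 libraries in 4 groups of 3. LAC responders and LAC non-responders were FSL rats that drank L-acetyl-carnitine (LAC), the acetyl ester of carnitine, which carries fatty acids into mitochondria. They had it dissolved at 0.3% (w/v) over 7 days, with a daily intake near 210 mg/kg. FSL vehicle and FRL vehicle rats drank tap water over the same time. How responders were told from non-responders, how many animals stand behind 1 library and how old they were is not stated in the labels. Where libraries of a group did not come from separate animals, the p-values cover only the spread between these libraries.

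AMPA receptors are glutamate-gated channels built from 4 subunits, and they carry most of the fast excitatory current at synapses of the hippocampus. Gria2 decides whether the channel passes calcium, because its RNA is edited at a pore position by the enzyme made from Adarb1. Kainate receptors are built in the same way from the Grik subunits. Grik1, Grik2 and Grik3 can form channels alone, while Grik4 and Grik5 bind kainate with high affinity and reach the surface only together with one of the other 3. In the hippocampus kainate receptors are best known from the mossy fibre synapse, which runs from the granule neurons of the dentate gyrus to CA3.

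Between 5.91 and 8.14 M reads per library were counted in genes (M for mega). Levels are given as counts per M counted reads (CPM) after TMM scaling, and they were not compared between genes because transcript lengths were not used here. Several libraries stood apart in marker genes of cell types and brain regions. Prox1, which marks granule neurons, was at 9.19 CPM in responder 1 and 10.4 CPM in FRL vehicle 2, against 51.6 to 129 CPM in the other 10 libraries. C1ql2, another granule marker, was low in the same libraries, at 3.31 CPM in responder 1 and 4.53 CPM in FRL vehicle 2, against 29.8 to 59.1 CPM in the other 10. Other markers of that list were not low in responder 1, with Calb1 at 191.7 CPM, the second highest of the 12, and C1ql3 at 93.2 CPM. Its sum over the granule list, 392 CPM, lay above that of non-responder 2, while FRL vehicle 2 had the lowest sum, 279 CPM. Responder 1 also held 156 CPM of Tcf7l2 and 274 CPM of Slc17a6, both strongly expressed in thalamus, which did not pass 20.5 and 69.5 CPM in any other library. Ttr, the main secreted product of choroid plexus, was at 5388 CPM in non-responder 1, 2783 CPM in FSL vehicle 1 and 289 CPM in FSL vehicle 3, and at 3.07 to 40.1 CPM elsewhere. Markers of meninges and fibroblasts, of which Col1a2 had no count in any library, summed to 87.0 to 232 CPM in responders, 345 to 599 CPM in non-responders, 246 to 2693 CPM in FSL vehicle and 157 to 343 CPM in FRL vehicle. Responders lay below both FSL vehicle and non-responders in this sum without overlap. FSL vehicle 3 was highest in it, with 1231 CPM of Igf2, and also in endothelium and pericyte markers, at 696 CPM against 338 to 477 CPM in the other 11. Responders, at 370 to 388 CPM of endothelium and pericyte markers, again lay below non-responders (409 to 477 CPM) and FSL vehicle (438 to 696 CPM). Markers of the CA1 field and subiculum summed to 541 to 665 CPM in responders and 626 to 865 CPM in non-responders. They summed to 733 to 1271 CPM in FSL vehicle, without overlap with responders, and 666 to 1075 CPM in FRL vehicle. Oligodendrocyte markers summed to 5621 to 10569 CPM in responders, 7123 to 11764 CPM in non-responders, 4151 to 5705 CPM in FSL vehicle and 5225 to 7408 CPM in FRL vehicle. The summed level of 12 pan-neuronal genes was 7902 to 8840 CPM in responders, 7421 to 8286 CPM in non-responders, 6055 to 7745 CPM in FSL vehicle and 8301 to 8574 CPM in FRL vehicle. The part of these shifts in the values that follow was not tested, and in bulk tissue fewer cells of a type and less RNA per cell cannot be told apart.

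None of the 9 subunits passed a test between any of the groups compared, and the 4 groups overlapped for each of them. Gria2, the AMPA subunit that sets calcium permeability, was at 1755, 1502 and 1793 CPM in responders and at 1599, 1379 and 1504 CPM in non-responders. It was at 1637, 1625 and 1158 CPM in FSL vehicle and at 1649.7, 1361 and 1457 CPM in FRL vehicle. The levels of the 4 groups overlapped, and FSL vehicle 3, the library richest in meningeal markers, was the lowest of the 12, as it was for Gria4 and Grik1. Means were 1684 ± 158 CPM in responders, 1494 ± 110 CPM in non-responders, 1473 ± 273 CPM in FSL vehicle and 1489 ± 147 CPM in FRL vehicle (SD, n = 3 each).

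Gria1, the subunit delivered to synapses in activity-dependent strengthening, was at 326, 447 and 625 CPM in responders and at 534, 359 and 490.2 CPM in non-responders. It was at 556, 421 and 338 CPM in FSL vehicle and at 618, 276 and 389 CPM in FRL vehicle. Each group spanned both high and low values, and the lowest libraries were FRL vehicle 2 and responder 1, the same pair that was low in Prox1. Means were 466 ± 150 CPM in responders, 461 ± 91.0 CPM in non-responders, 439 ± 110 CPM in FSL vehicle and 428 ± 174 CPM in FRL vehicle (SD, n = 3 each). The spread of Gria1 over the 12 libraries was 2.26-fold from lowest to highest, with a coefficient of variation of 26.0%, against 1.55-fold and 11.7% for Gria2. Counting error at the lowest Gria1 count of 2071 was 2.20%, smaller than that spread.

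Gria3, which pairs with Gria2 in a large share of hippocampal receptors, was at 514, 407 and 460.0 CPM in responders and at 377, 398 and 451 CPM in non-responders. It was at 469.5, 371 and 384 CPM in FSL vehicle and at 387, 489 and 489 CPM in FRL vehicle. Responder 1 was the highest library and FSL vehicle 2 the lowest, and the groups overlapped within a range of 1.39-fold, the narrowest of the 9 subunits. Gria4, known in the hippocampus mainly from interneurons and from early development, was at 247, 239.7 and 209 CPM in responders and at 213, 225 and 220.2 CPM in non-responders. It was at 207, 272 and 189.8 CPM in FSL vehicle and at 198, 287 and 259 CPM in FRL vehicle. FRL vehicle 2, where Gria1 was lowest, had the highest Gria4, and the groups again overlapped.

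Among the kainate subunits that can form channels alone, Grik2, the one most tied to mossy fibre transmission, was at 145 to 177 CPM in responders, 152 to 171 CPM in non-responders, 134 to 170.3 CPM in FSL vehicle and 115 to 184 CPM in FRL vehicle. The highest and the lowest of the 12 libraries were both FRL vehicle, so the control line alone covered the range of all others. Grik1, known in the hippocampus mostly from interneurons, was at 44.4, 32.8 and 27.4 CPM in responders and at 28.5, 25.7 and 29.0 CPM in non-responders. It was at 34.4, 27.6 and 24.8 CPM in FSL vehicle and at 26.2, 32.1 and 32.7 CPM in FRL vehicle. The highest value came from responder 1, the library with thalamic genes, and the other 2 responders lay within the range of the other groups.

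Grik3, a kainate subunit found at presynaptic sites of mossy fibres, was at 45.3, 70.9 and 61.7 CPM in responders and at 52.3, 85.8 and 60.9 CPM in non-responders. It was at 73.5, 36.6 and 71.8 CPM in FSL vehicle and at 64.2, 85.1 and 74.6 CPM in FRL vehicle. FSL vehicle 2 was the lowest of the 12 while the other 2 libraries of its group were among the higher ones. FRL vehicle had the highest mean, 74.6 ± 10.4 CPM, against 59.3 ± 12.9 CPM in responders, 66.3 ± 17.4 CPM in non-responders and 60.7 ± 20.8 CPM in FSL vehicle (SD, n = 3 each), and its range lay within that of non-responders.

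Of the 2 high-affinity subunits, Grik4, which is prominent in CA3 pyramidal neurons, was at 25.7, 50.4 and 88.4 CPM in responders and at 78.1, 52.6 and 67.7 CPM in non-responders. It was at 53.1, 34.2 and 44.4 CPM in FSL vehicle and at 81.6, 35.5 and 43.6 CPM in FRL vehicle. Both the lowest and the highest library were responders, and the lowest non-responder was less than 1 CPM below the highest FSL vehicle library. This was the widest spread of the 9, 3.44-fold, and its coefficient of variation of 36.9% was above that of 87.4% of all tested genes. Grik5, the partner of Grik2 in most neurons, was at 111, 122 and 119 CPM in responders and at 112, 102 and 140.1 CPM in non-responders. It was at 166, 85.4 and 151 CPM in FSL vehicle and at 129.7, 121 and 155 CPM in FRL vehicle. FSL vehicle held both its highest and its lowest library, and responders were close to each other, at 117 ± 5.55 CPM (SD, n = 3).

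**Figure D1:**
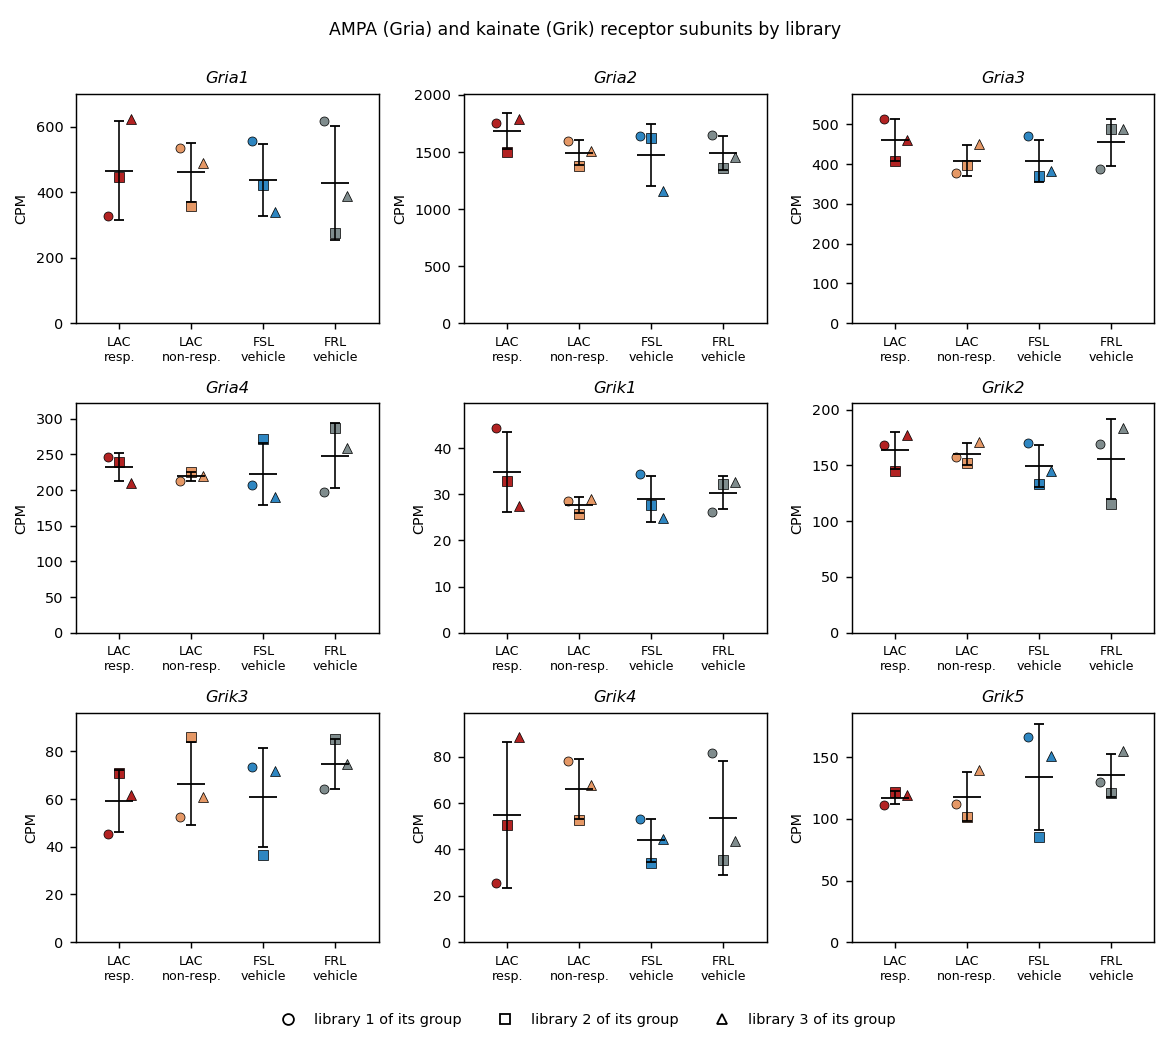
Level of each subunit in CPM (vertical axes, from 0) in the 12 libraries, 1 point per library, with libraries grouped as LAC responder, LAC non-responder, FSL vehicle and FRL vehicle and marked by their number within the group. The 4 groups overlap in all 9 panels, Grik4 spans 25.7 to 88.4 CPM within the responders alone, and Gria3 has the narrowest range.

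The comparison of LAC responders with FSL vehicle asked whether subunit RNA differed in treated rats of the same line that responded. In edgeR's quasi-likelihood test with Benjamini-Hochberg (BH) adjustment over all tested genes, 0 of the 9 subunits passed an adjusted p of 0.05, and 0 had an unadjusted p under 0.05. The share of all tested genes past the adjusted threshold was 0% as well, while 13.8% had an unadjusted p under 0.05. Neither DESeq2 nor limma-voom called a subunit, although DESeq2 called 186 genes. The subunit with the smallest p was Grik1, with a log2 fold change of 0.27 ± 0.18 (SE) and an edgeR adjusted p of 0.512. Its 95% interval ran from 0.925-fold to 1.58-fold, and without responder 1 the log2 fold change was 0.06 ± 0.16. Gria2 had a log2 fold change of 0.19 ± 0.14 and Gria3 of 0.17 ± 0.13, and the interval of Gria2 ran from 0.927-fold to 1.41-fold. Single libraries moved these estimates: leaving out FSL vehicle 3 gave 0.04 ± 0.11 for Gria2, leaving out FSL vehicle 1 gave 0.28 ± 0.15, and the estimate of Gria3 was 0.09 ± 0.14 without responder 1 and 0.29 ± 0.13 without FSL vehicle 1.

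On TMM scaling 7 of the 9 estimates in responders were above FSL vehicle, but only 2 of 9 were when libraries were scaled to the pan-neuronal genes, which moved the median of all genes to -0.24. On TMM scaling 52% of all tested genes were above 0. The median of the subunits was 0.13 on the log2 scale against 0.01 for all tested genes, and on pan-neuronal scaling it was -0.12 against -0.24. Grik5 and Grik3 were the members estimated lower in responders, at -0.19 ± 0.21 and -0.03 ± 0.27 on TMM scaling. Without FSL vehicle 2, the library lowest in Grik5, the estimate of Grik5 was -0.43 ± 0.14 with an edgeR adjusted p of 0.119, and without FSL vehicle 1, the highest, it was -0.0057 ± 0.22 with an adjusted p of 0.992. The interval of Grik4, from 0.660-fold to 2.37-fold, was the widest, so the difference in this most variable subunit was the least closely bounded of the 9.

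For LAC non-responders against FSL vehicle, again 0 of 9 subunits passed the adjusted or the unadjusted threshold in edgeR's quasi-likelihood test, against 0% and 4.21% of all tested genes, and DESeq2 and limma-voom also called 0 subunits. Over all genes DESeq2 called 2. Grik4 had the largest estimate, a log2 fold change of 0.59 ± 0.42 with an edgeR adjusted p of 0.976 and an interval from 0.797-fold to 2.86-fold. Its means were 66.1 ± 12.8 CPM in non-responders and 43.9 ± 9.45 CPM in FSL vehicle (SD, n = 3 each). Libraries of the same number deviated together in these groups, though the labels do not say that the numbers pair them. Taken by number, the log2 ratio of Grik4 in non-responders over FSL vehicle was 0.56, 0.62 and 0.61. A fit of these 6 libraries with the number as a block was added after the data had been seen. It gave 0.59 ± 0.11, with an unadjusted edgeR p of 0.000876 and an edgeR adjusted p of 0.658 over 11550 genes. The block was picked from these same libraries, so the SE and p-value of the fit cannot support a difference. That fit called 0 genes, and Grik4 was the only subunit with an unadjusted p under 0.05, as had 547 of all genes. Summed CA3 markers were at 253 to 440.2 CPM in non-responders and 205 to 271 CPM in FSL vehicle, and their part in this difference was not tested. Gria2 and Gria3 had log2 fold changes close to 0, of 0.02 ± 0.14 and 0.0020 ± 0.13, and the interval of Gria3 ran from 0.820-fold to 1.22-fold. The median over the subunits was 0.02, with 6 above 0 on TMM scaling and 1 on pan-neuronal scaling, where the median of all genes moved to -0.19. On TMM scaling 48.9% of all genes were above 0.

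Responders and non-responders received the same agent at the same dose, and this comparison asks what differed between them. In edgeR's quasi-likelihood test 0 of 9 subunits passed either threshold, against 0% of all tested genes at the adjusted and 3.14% at the unadjusted one, with 0 genes called by DESeq2 and by limma-voom. Grik1 was the nearest, at a log2 fold change of 0.33 ± 0.18 and an edgeR adjusted p of 0.992. Its interval ran from 0.964-fold to 1.64-fold, and without responder 1 the estimate was 0.12 ± 0.16. Gria1 was estimated at 0.02 ± 0.31, with a wide interval from 0.626-fold to 1.63-fold. The intervals of Gria3, 0.923-fold to 1.38-fold, and Gria2, 0.914-fold to 1.39-fold, bound any difference in these AMPA subunits more tightly. Of the 9 estimates 6 were above 0 on TMM scaling and 4 on pan-neuronal scaling, beside 50.3% of all tested genes on TMM scaling. On pan-neuronal scaling the median of the subunits was -0.03 against -0.06 for all tested genes.

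FSL vehicle against FRL vehicle compared the lines without treatment. In edgeR's quasi-likelihood test 0 of 9 subunits passed an adjusted p of 0.05, against 0.0681% of all tested genes, and 0 had an unadjusted p under 0.05, against 13.9%. DESeq2 and limma-voom called 0 subunits as well. The subunit with the smallest p was Gria3, with a log2 fold change of -0.16 ± 0.13, an edgeR adjusted p of 0.641 and an interval from 0.735-fold to 1.10-fold. Grik3 was estimated at -0.30 ± 0.27 and Grik4 at -0.29 ± 0.42, and the interval of Grik3 ran from 0.535-fold to 1.23-fold. The estimate of Grik3 rested on FSL vehicle 2, its lowest library, without which it was -0.04 ± 0.23. On TMM scaling 8 of the 9 estimates were below 0, beside 51.6% of all tested genes, but only 2 of 9 on pan-neuronal scaling, where the median of all genes moved to 0.27 and that of the subunits to 0.20. The pan-neuronal sum was lower in each FSL vehicle library than in any FRL vehicle library. Without the 3 libraries high in Ttr, which leaves FSL vehicle 2, the lowest of the 12 in both genes, alone in its group with an assumed spread like that of the others, Grik3 was at -1.02 ± 0.30 and Grik5 at -0.66 ± 0.20, with edgeR adjusted p of 0.212 and 0.208.

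A test for any difference among the 4 groups called 0 of the 9 subunits, against 0.0255% of all tested genes, and 0 had an unadjusted p under 0.05, against 9.02%. The smallest adjusted p of edgeR's quasi-likelihood F test was 0.803, for Grik1, and DESeq2 and limma-voom called 0 subunits in it. Groups overlapped for all 9 subunits in all 4 comparisons. Among all tested genes, groups did not overlap for 12.5% in responders against FSL vehicle, 7.8% in non-responders against FSL vehicle, 11.3% in responders against non-responders and 13.8% in FSL vehicle against FRL vehicle. The 3 comparisons that hold FSL vehicle share its libraries, so their values are not independent.

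**Figure D2:**
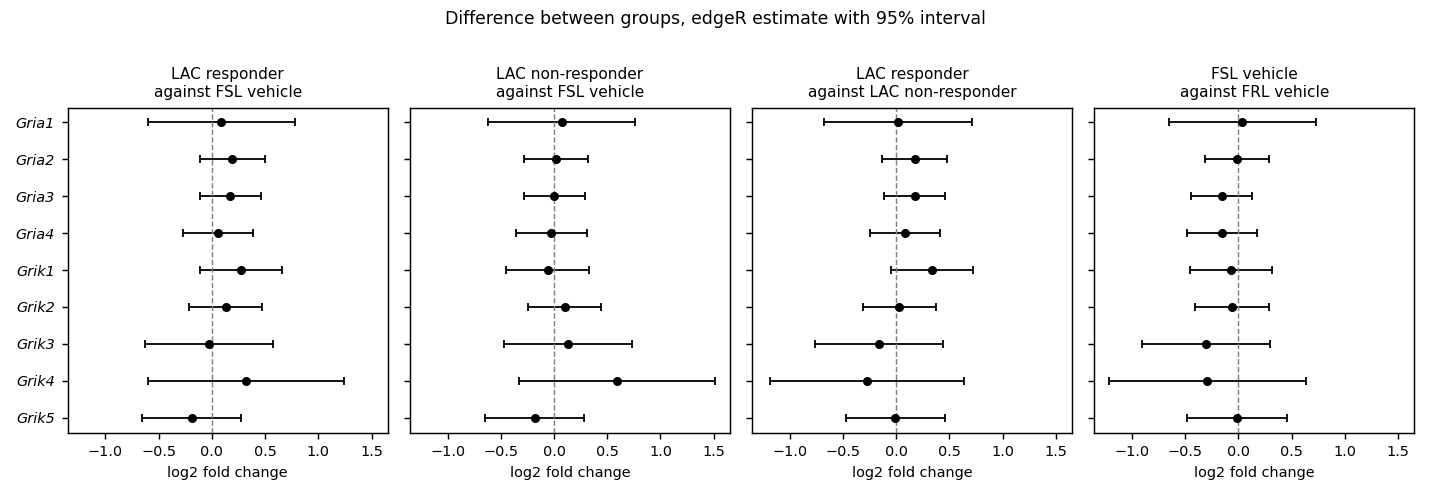
Log2 fold change of each subunit (horizontal axes) in the 4 comparisons, as the edgeR estimate on TMM scaling with its 95% interval, with a dashed line at 0. Every interval crosses 0, the widest being that of Grik4. Under pan-neuronal scaling, which also moves the median of all genes, many of the estimates change sign.

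The proportions of the subunits to each other were also set against the groups, because a ratio of counts within a library is free of scaling. The counts were not corrected for transcript length, so a ratio is read only between libraries. Over the 12 libraries the ratio of Gria1 to Gria2 counts, of interest because channels without Gria2 pass calcium, ran from 0.186 in responder 1 to 0.375 in FRL vehicle 1. It was 0.186, 0.298 and 0.349 in responders, 0.334, 0.260 and 0.326 in non-responders, 0.340, 0.259 and 0.292 in FSL vehicle, and 0.375, 0.203 and 0.267 in FRL vehicle. Responders and FRL vehicle each held a low and a high library, and the groups overlapped. An exact permutation test of the one-way F statistic over all 369600 divisions of the libraries, which cannot go below 6.49e-05, gave p = 0.911.

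The ratio that varied most was Grik4 to Grik2, from 0.153 in responder 1 to 0.498 in responder 3. That of Grik3 to Grik2 ran from 0.269 in responder 1 to 0.738 in FRL vehicle 2. Summed Gria counts were 4.73 times the summed Grik counts in FSL vehicle 3 and 8.48 times in FSL vehicle 2, so the extremes of this ratio lay within 1 group. FRL vehicle 2 was the highest library in 5 of the 8 ratios examined, and responder 1 the lowest in 3. These ratios share Gria2 or Grik2 as denominator, so they are not separate observations. FRL vehicle 2 was the lowest library in Grik2, at 115 CPM. The smallest p of the exact permutation test was 0.384, for Grik5 to Grik2, and after BH adjustment over the 8 ratios all were at 0.911.

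**Figure D3:**
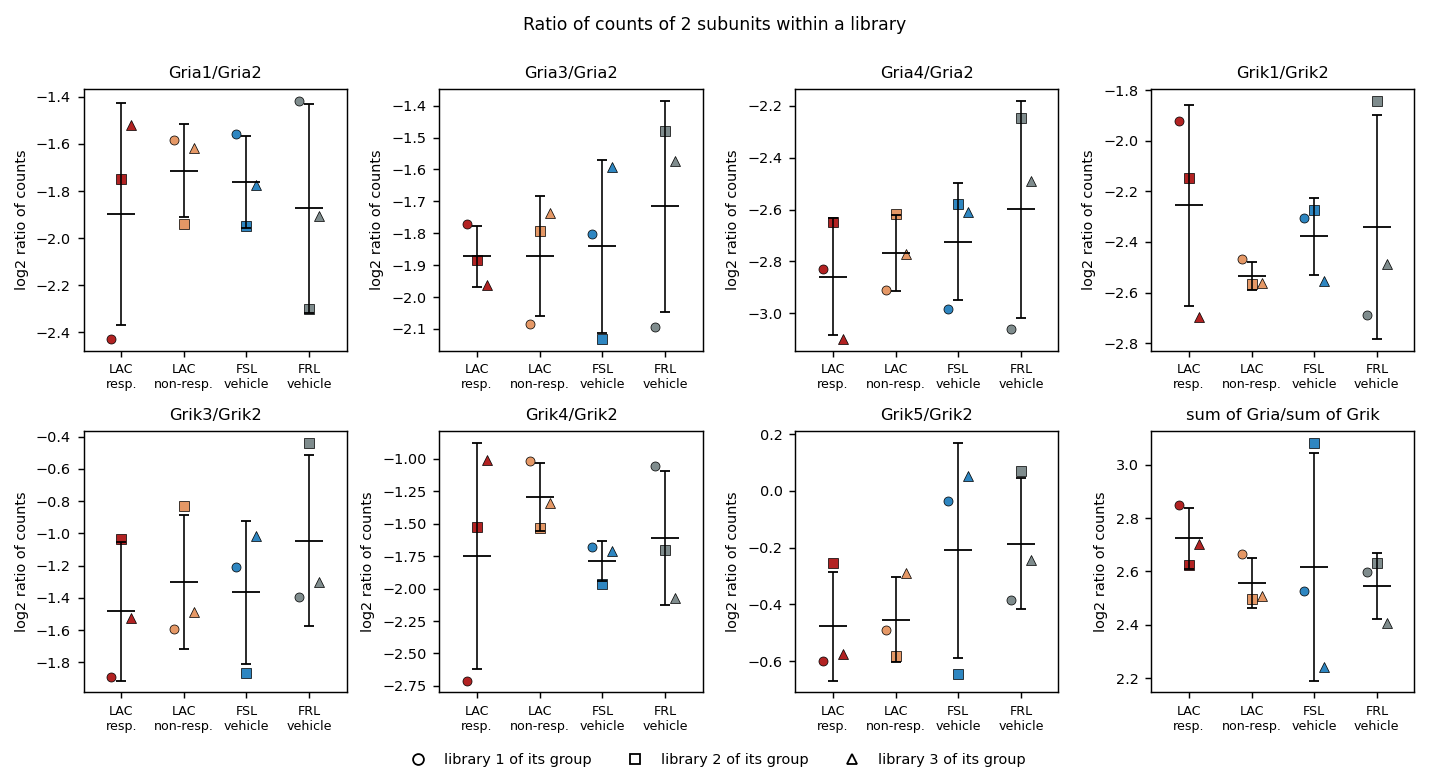
Log2 ratio of the counts of 2 subunits, or of the summed Gria and Grik counts, within a library (vertical axes) in the 12 libraries, grouped as LAC responder, LAC non-responder, FSL vehicle and FRL vehicle, with 1 point per library. The groups overlap in each panel; the Grik4 to Grik2 panel runs from -2.71 to -1.01 within the responders.

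The subunits varied together in a few cases across the 12 libraries. Gria1 and Grik4 correlated at Pearson r = 0.825 (permutation p = 0.00115, BH-adjusted p = 0.0414 over 36 pairs) and Spearman rho = 0.853 (permutation p = 0.000800, BH-adjusted p = 0.0288). Both were low in responder 1 and FRL vehicle 2 and high in responder 3, non-responder 1 and FRL vehicle 1. After the 2 libraries farthest from the median of Gria1 were left out r was 0.779, and on deviations from group means it was 0.884. It was the only one of the 36 pairs to pass, and the adjusted permutation p rose above 0.05 when any one of FRL vehicle 1, 2 or 3, non-responder 1 or 3, or responder 3 was left out (r = 0.783 at the lowest). Without both libraries low in Prox1 r was 0.773 with an adjusted permutation p of 0.133, and without the 3 libraries high in Ttr it was 0.851 with an adjusted permutation p of 0.114. Without the 4 libraries with high sums of CA3 markers described further on, r was 0.544 (exact permutation p = 0.168, BH-adjusted p = 0.252 over 3 pairs). Among these other 8 rho was 0.571 (exact permutation p = 0.151, BH-adjusted p = 0.227). The 4 left out were also the highest in Grik4, so the narrower range cannot decide whether the relation rested on them.

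The next pairs did not pass. Gria3 and Grik1 correlated at r = 0.745 (permutation p = 0.00320, BH-adjusted p = 0.0576) and rho = 0.685 (permutation p = 0.0174, BH-adjusted p = 0.208), and r was 0.669 after the 2 libraries farthest from the median were left out. Gria4 ran against Grik4, with r = -0.664 (permutation p = 0.0199, BH-adjusted p = 0.239) and rho = -0.699 (permutation p = 0.0146, BH-adjusted p = 0.208), and r was -0.537 after the 2 farthest libraries were left out. Over all 36 pairs 22 had a positive r.

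Subunit levels were also set beside the summed levels of 15 lists of cell type markers, a comparison of 135 pairs added after the data had been seen. Of these pairs 3 passed for Pearson's r, those of Gria1 with granule neuron, Gria4 with interneuron and Grik4 with CA3 markers, and none of the 135 passed for Spearman's rho. Gria1 followed 7 dentate granule neuron markers found in the files (10 listed) at r = 0.890 (permutation p = 3.0e-05, BH-adjusted p = 0.00270) and rho = 0.867 (permutation p = 0.000590, BH-adjusted p = 0.0715). Granule markers summed to 392 to 523 CPM in responders, 382 to 429.8 CPM in non-responders, 394 to 549 CPM in FSL vehicle and 279 to 498 CPM in FRL vehicle. The lowest sum was that of FRL vehicle 2, the library where Gria1 was lowest too. Without the 2 libraries farthest from the median of the markers r was 0.905, and on deviations from group means it was 0.953. Gria1 was not shown to be particular to granule markers, since its pair with CA3 markers followed closely, with BH-adjusted permutation p of 0.0516 for Pearson's r and 0.0715 for rho over the 12 libraries.

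Gria4 followed 12 GABAergic interneuron markers, which summed to 1197 to 1381 CPM in responders, 1156 to 1276 CPM in non-responders, 961 to 1377 CPM in FSL vehicle and 1198 to 1644 CPM in FRL vehicle. The correlation was r = 0.887 (permutation p = 4.0e-05, BH-adjusted p = 0.00270) and rho = 0.783 (permutation p = 0.00380, BH-adjusted p = 0.128), with r = 0.820 after the 2 farthest libraries were left out and r = 0.895 on deviations from group means. FRL vehicle 2 was highest in both, and 1 of the 12 markers, Npy, had no count in any library. Grik4 followed the 6 CA3 markers in the files (7 listed) at r = 0.848 (permutation p = 0.000600, BH-adjusted p = 0.0270) and rho = 0.797 (permutation p = 0.00305, BH-adjusted p = 0.128). After the 2 farthest libraries were left out r was 0.753, and on deviations from group means it was 0.843. With 1 library left out r ran from 0.807 to 0.877. The pair did not pass without the libraries low in Prox1. The widest gap in the CA3 sums set 4 libraries apart from the other 8.

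CA3 markers summed to 229, 295 and 457 CPM in responders, 440.2, 253 and 377 CPM in non-responders, 247, 271 and 205 CPM in FSL vehicle, and 439, 231 and 233 CPM in FRL vehicle. The 4 libraries at 377 CPM or more were responder 3, non-responders 1 and 3 and FRL vehicle 1, and the same 4 were the highest in Grik4, at 67.7 to 88.4 CPM. Among the other 8, at 205 to 295 CPM, r of Grik4 with the CA3 markers was 0.265 (exact permutation p = 0.520, BH-adjusted p = 0.520 over 3 pairs). There rho was 0.333 (exact permutation p = 0.428). The cut was made after the data had been seen, and 8 libraries over this narrow range cannot show whether the relation holds there. For Gria1 and the CA3 markers among these 8, r was 0.534 (exact permutation p = 0.166, BH-adjusted p = 0.252) and rho was 0.714 (exact permutation p = 0.0576, BH-adjusted p = 0.173). Neither relation could be tested among the 4 high libraries.

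The calls of Gria1 and Gria4 depended on which libraries were included. Leaving out FRL vehicle 2 took the adjusted permutation p of both to 0.0562, with r = 0.866 for Gria1 and 0.834 for Gria4. Without both libraries low in Prox1 r was 0.863 for Gria1 and 0.819 for Gria4, each with an adjusted permutation p of 0.108. Without the 3 libraries high in Ttr r was 0.924 for Gria1 with an adjusted permutation p of 0.0182, and 0.885 for Gria4 with an adjusted permutation p of 0.0513. All points share their library, its depth and its dissection.

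**Figure D4:**
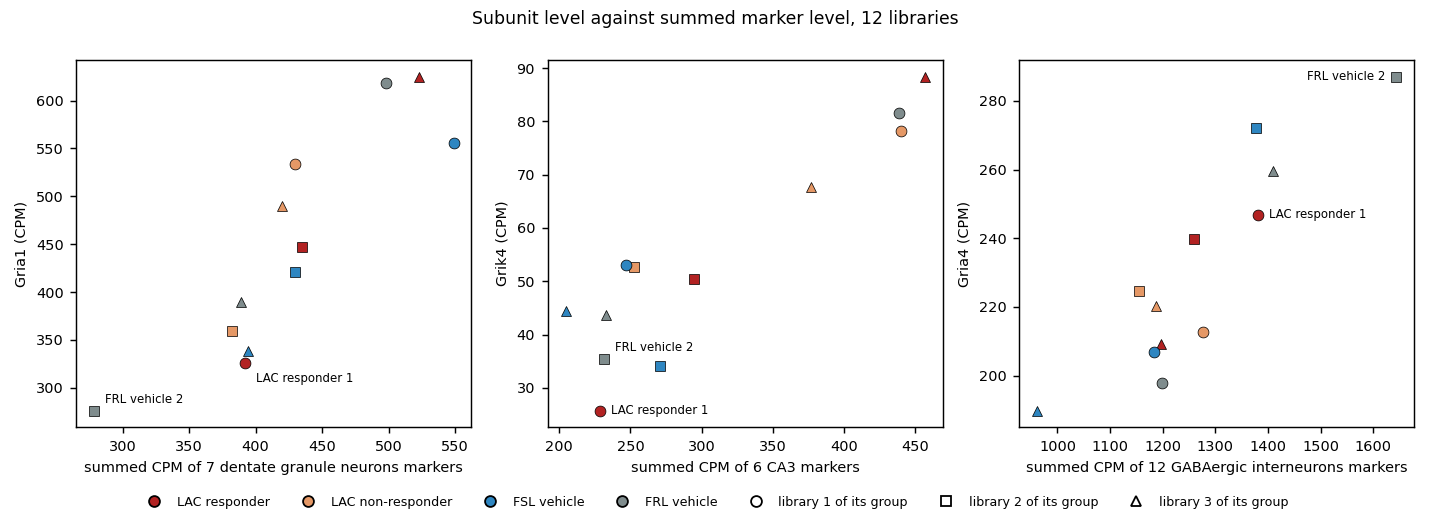
Subunit level in CPM (vertical axes) against the summed CPM of a marker list (horizontal axes) for Gria1 with granule neuron, Grik4 with CA3 and Gria4 with interneuron markers, with 1 point per library coloured by group. FRL vehicle 2 lies at an end of the Gria1 and Gria4 panels, and in the Grik4 panel 4 libraries at 377 CPM or more of CA3 markers stand apart from the other 8.

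Among the other 11749 tested genes, those most like each subunit across the 12 libraries were found by Pearson's r of log2 CPM, as a description without a test. Gria1 was most like Mas1 and Icam5 (r = 0.976 for both) and Cotl1 (0.962). Gria2 was most like Fam188a (0.931), Mmd2 (0.920) and Erc2 (0.919), and Gria3 like Rab3gap2 (0.882), Kctd8 (0.871) and Map6 (0.864), the lowest likeness of the 9. Gria4 was most like Nlk (0.948), Rab3c (0.942) and Ttl (0.916).

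Among the kainate subunits, Grik1 was most like Cntnap5c (r = 0.955), Gabrb2 (0.920) and Cntn6 (0.918), and Grik2 like Spdya (0.920), Lppr1 (0.919) and Btbd3 (0.915). Grik3 was most like Tshz3 (0.917), Cntnap4 (0.901) and Rhog (0.900), Grik4 like Ryr2 (0.967), Exoc8 (0.935) and Cap1 (0.930), and Grik5 like Whsc1l1 (0.964), Cherp (0.963) and Cabin1 (0.959). No subunit was among the 3 genes most like another subunit.

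Of 48 listed partners of these receptors, such as auxiliary subunits, scaffolds and RNA-editing enzymes, 45 were in the files and all 45 were tested. None passed an adjusted p of 0.05 in edgeR's quasi-likelihood test in any comparison, while DESeq2 called 1, Adarb1, in responders against FSL vehicle. In that comparison 33 of the 45 estimates were above 0 on TMM scaling, beside 52% of all tested genes, but 13 of 45 on pan-neuronal scaling. The median log2 fold change was 0.12 against 0.01 for all tested genes on TMM scaling, and -0.12 against -0.24 on pan-neuronal scaling. Of the partners 4 of 45 had an unadjusted p under 0.05 there, beside 13.8% of all tested genes, and 4 did not overlap, each higher in responders, beside 6.37% of all tested genes not overlapping and higher. In non-responders against FSL vehicle 1 of the 45 had an unadjusted p under 0.05, beside 4.21% of all tested genes, and 2 were higher without overlap, beside 4.68%. In FSL vehicle against FRL vehicle 34 of the 45 estimates were below 0 on TMM scaling, beside 51.6% of all tested genes, and 11 on pan-neuronal scaling. On pan-neuronal scaling the median was 0.16 for the partners against 0.27 for all tested genes. On TMM scaling 8 of the 45 had an unadjusted p under 0.05 between the lines, beside 13.9% of all tested genes. Lower without overlap in FSL vehicle were 6, beside 6.23%.

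Adarb1, the enzyme that edits the pore position of Gria2 RNA, had the smallest p of all partners in responders against FSL vehicle. It was at 428, 359 and 355 CPM in responders and at 331, 319.9 and 288 CPM in non-responders. It was at 304, 274 and 238 CPM in FSL vehicle and at 312, 298 and 300.5 CPM in FRL vehicle. Each responder library was above all 9 others. How many of all tested genes did this was not counted. In responders 6.37% of them were higher without overlap against FSL vehicle, and 5.76% against non-responders. The log2 fold change of Adarb1 against FSL vehicle was 0.48 ± 0.10 with an edgeR adjusted p of 0.244, which does not pass. Against non-responders it was 0.28 ± 0.10 with an edgeR adjusted p of 0.992. The call against FSL vehicle appeared with DESeq2 (adjusted p = 0.00615) and in edgeR without FSL vehicle 1 (adjusted p = 0.0306), and over all alternatives the adjusted p ranged up to 0.707, in edgeR without FSL vehicle 3. On pan-neuronal scaling the log2 fold change of Adarb1 against FSL vehicle was 0.25, where the median of all genes was -0.24. On TMM scaling that median was 0.01. Counts per gene do not measure how much Gria2 RNA is edited, and Gria2 itself did not pass in any comparison.

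Prrt2, a presynaptic protein also found in AMPA receptor complexes, was at 158, 169 and 173 CPM in responders and at 146, 163 and 190.2 CPM in non-responders. It was at 140.2, 118 and 140.4 CPM in FSL vehicle and at 174, 164 and 167 CPM in FRL vehicle. The 3 FSL vehicle libraries were the lowest of the 12. How many of all tested genes did this was not counted. FSL vehicle was lower without overlap for 6.37% of them against responders, 4.68% against non-responders and 6.23% against FRL vehicle. Log2 fold changes of Prrt2 were 0.32 ± 0.10 in responders and 0.32 ± 0.10 in non-responders against FSL vehicle, and -0.34 ± 0.10 in FSL vehicle against FRL vehicle, with edgeR adjusted p of 0.266, 0.976 and 0.251. All 3 rest on the same FSL vehicle libraries, whose pan-neuronal sums were each below those of FRL vehicle. On pan-neuronal scaling the estimates were 0.06, 0.13 and -0.05, but the medians of all genes moved as well, to -0.24, -0.19 and 0.27. The part of neuronal content in the Prrt2 differences was not tested.

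Neto2, an auxiliary subunit of kainate receptors, was at 49.5, 40.9 and 38.1 CPM in responders, 33.6, 28.0 and 34.5 CPM in non-responders, 34.1, 34.8 and 24.1 CPM in FSL vehicle and 39.0, 47.6 and 29.3 CPM in FRL vehicle. Responders lay above both other FSL-line groups without overlap, and FRL vehicle overlapped with all. Its log2 fold change against FSL vehicle was 0.47 ± 0.19 with an edgeR adjusted p of 0.327, and it was 0.35 ± 0.21 without responder 1. Cacng4, an auxiliary subunit of AMPA receptors, was estimated at 0.36 ± 0.14 in responders against FSL vehicle and at 0.41 ± 0.14 against non-responders. Cacng5, of the same family, had the largest estimates, 0.94 ± 0.46 and 0.99 ± 0.46, but they rested on responder 1, at 11.5 CPM against 2.48 and 4.32 CPM in the other 2 responders, and fell to 0.09 ± 0.32 and 0.14 ± 0.32 without it.

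Between the lines, the partners of smallest p after Prrt2 were Dlg2, a scaffold of the postsynaptic density, at -0.23 ± 0.08, Nsf, an ATPase that binds Gria2, at -0.25 ± 0.10, Olfm3, a secreted protein found in AMPA receptor complexes, at -0.60 ± 0.24, and Adar, an RNA-editing enzyme, at -0.20 ± 0.09. These are log2 fold changes of FSL vehicle against FRL vehicle on TMM scaling, with edgeR adjusted p of 0.280 to 0.318. Dlg2 was at 365, 343 and 308 CPM in FSL vehicle and at 391, 418 and 379.5 CPM in FRL vehicle, without overlap. On pan-neuronal scaling Dlg2, Nsf and Adar turned to small positive values of 0.05, 0.02 and 0.08, while the median of all genes moved to 0.27. In non-responders against FSL vehicle the 5 of smallest p were Prrt2, Adarb1 at 0.20 ± 0.10, Cnih3 at -0.57 ± 0.30, Nptx1 at 0.61 ± 0.32 and Nrn1 at 0.32 ± 0.18, each with an edgeR adjusted p of 0.976. In responders against non-responders C1ql3, a secreted synaptic protein of granule neurons, followed Cacng5 at 0.43 ± 0.22. There 7 of 45 partners were higher in responders without overlap, beside 5.76% of all tested genes. An unadjusted edgeR p under 0.05 was found for 3 of 45, beside 3.14% of all tested genes. Estimates above 0 numbered 28 of 45 on TMM scaling, beside 50.3% of all tested genes, and 18 on pan-neuronal scaling. That scaling moved all genes: the median was -0.02 for the partners against -0.06 for all tested genes. In the test for any difference among the 4 groups the 5 partners of smallest p were Adarb1, Prrt2, Cacng4, Olfm2 and Neto2, and the smallest edgeR adjusted p was 0.457.

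**Figure D5:**
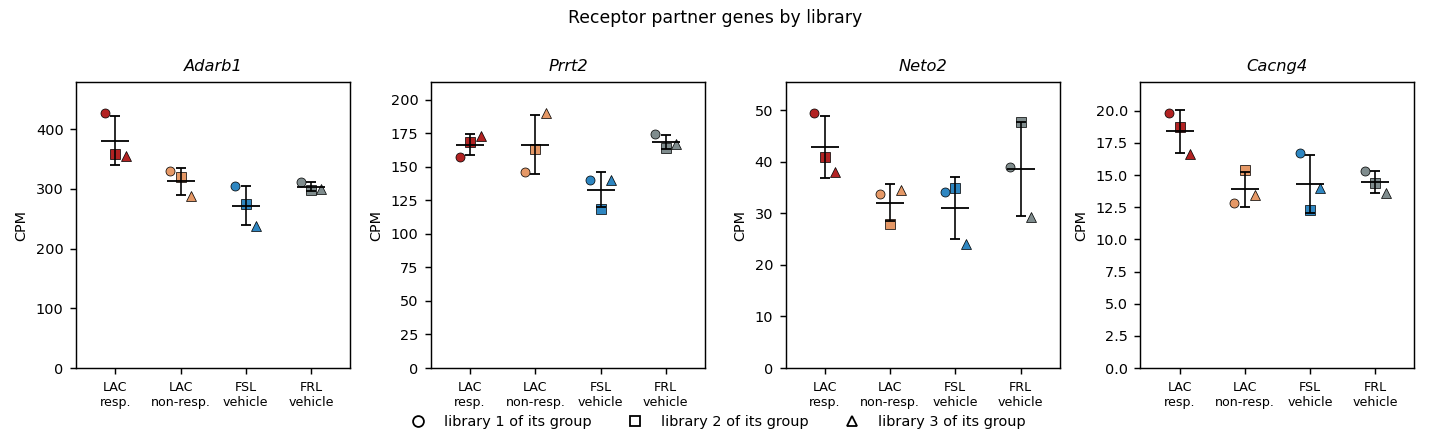
Level in CPM (vertical axes, from 0) of partner genes of smallest p in the 12 libraries, grouped as LAC responder, LAC non-responder, FSL vehicle and FRL vehicle, with 1 point per library. For Adarb1 the 3 responders, at 355 to 428 CPM, lie above the other 9 libraries, and for Prrt2 the 3 FSL vehicle libraries, at 118 to 140.4 CPM, lie lowest.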

How the data were processed

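Raw counts of reads per gene, as whole numbers, were deposited by the authors for 12 rat libraries. The build rn5 and the tools TopHat2 2.0.9, HTSeq 0.6.1, Trimmomatic 0.33, FastQC 0.11.3 and edgeR 3.12.0 are listed, with no role, per the submitters' processing notes. No source used here gives the annotation or the strand setting. Summary lines, such as reads outside any gene (47.7% to 52.7%) and reads aligned to several places (24.3% to 28.4%), stayed out of library sizes.

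Groups were compared with edgeR 4.0.16 (R 4.3.3) after TMM scaling and its default expression filter. One robust quasi-likelihood model held the 12 libraries and a mean for each group, and two-sided p-values were BH-adjusted over 11750 genes at 0.05. SE and 95% intervals come from that fit. Marker lists were summed as CPM, and correlations took log2 CPM (prior count 2) and 100000 permutations. Scripts were tested on simulated data.

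The members, partner list and marker lists were chosen with earlier results of these data known. Named genes were all members, the 5 partners of smallest p in each comparison, and the 3 genes most like each member. Same-number libraries of non-responders and FSL vehicle deviated together (r = 0.581, 0.212 and 0.426). The labels name no shared litter or batch, and the first library of each of these groups was high in Ttr. The numbers are therefore not known to be pairs. No other pair of groups had a positive r for every number. Alternatives covered other size factors and scaling, filters, DESeq2 1.42.0, limma-voom (limma 3.58.1), a replicate block and fits of the compared groups only. For non-responders against FSL vehicle the last was also fitted with the block, added later. Libraries were also left out singly, by low Prox1 or by high Ttr. No RNA editing was analysed here, and no sequence is shown.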

Additional observations from a re-analysis of the deposited data

How the results depend on the processing

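No subunit passed an adjusted p of 0.05 under any alternative, in any of the 4 comparisons or in the 4-group test; the smallest adjusted p was 0.119. No subunit ratio passed either. Fold changes near 0 changed sign often, and the cause was not tested. All values are log2 fold changes. Pan-neuronal scaling also moved the median of all genes, to 0.27 in FSL vehicle against FRL vehicle and -0.24 in responders against FSL vehicle. It was -0.19 in non-responders against FSL vehicle and -0.06 in responders against non-responders. The sign changed with scaling to the pan-neuronal genes, in FSL vehicle against FRL vehicle, for Gria2 (0.24), Gria3 (0.12), Gria4 (0.12), Grik1 (0.20), Grik2 (0.22), Grik5 (0.28), Dlg2 (0.046), Nsf (0.018) and Adar (0.080). In responders against FSL vehicle it did so for Gria1 (-0.16), Gria2 (-0.041), Gria3 (-0.068), Gria4 (-0.18) and Grik2 (-0.12), in non-responders against FSL vehicle for Gria1 (-0.10), Gria2 (-0.15), Gria3 (-0.18), Grik2 (-0.087) and Grik3 (-0.055), and in responders against non-responders for Gria1 (-0.053) and Grik2 (-0.034). Gria3 in non-responders against FSL vehicle turned to -0.0031 with DESeq2, -0.0032 with DESeq2's size factors in edgeR, -0.0081 in a fit of the compared groups, -0.0046 in that fit with the replicate block and -0.0020 without the libraries low in Prox1. Limma-voom turned Grik3 in responders against FSL vehicle (0.021) and, against non-responders, Gria1 (-0.014) and Grik5 (0.0029). The replicate block turned Grik5 in responders against non-responders (0.012) and changed no call of a subunit; it gave 4 genes in FSL vehicle against FRL vehicle where the fit without it gave 8. Leaving out the libraries high in Ttr turned Gria1 (-0.020), Gria2 (0.13) and Gria4 (0.14) in FSL vehicle against FRL vehicle, Gria4 (-0.23), Grik3 (0.69) and Grik5 (0.45) in responders against FSL vehicle, and Gria2 (-0.17) and Grik5 (0.50) in non-responders against FSL vehicle. These values rest on FSL vehicle 2, left alone in its group and the lowest library in Grik3 and Grik5. The same limit holds for counts of genes called without the libraries high in Ttr wherever FSL vehicle is compared. Leaving out the libraries low in Prox1 turned Gria1 in FSL vehicle against FRL vehicle (-0.20), Grik3 in responders against FSL vehicle (0.13) and, against non-responders, Grik3 (0.00057), Grik4 (0.071) and Grik5 (0.031). With 1 library left out at a time, the following ranges crossed 0. In FSL vehicle against FRL vehicle they were -0.20 to 0.41 for Gria1, -0.10 to 0.14 for Gria2, -0.21 to 0.034 for Grik1, -0.23 to 0.072 for Grik2, -0.52 to 0.16 for Grik4 and -0.20 to 0.23 for Grik5. In responders against FSL vehicle they were -0.19 to 0.30 for Gria1, -0.051 to 0.23 for Gria4, -0.29 to 0.13 for Grik3 and -0.21 to 0.67 for Grik4. In non-responders against FSL vehicle they were -0.080 to 0.28 for Gria1, -0.12 to 0.10 for Gria2, -0.080 to 0.12 for Gria3, -0.13 to 0.14 for Gria4, -0.15 to 0.083 for Grik1, -0.13 to 0.30 for Grik3 and -0.42 to 0.0026 for Grik5. In responders against non-responders they were -0.26 to 0.22 for Gria1, -0.044 to 0.10 for Grik2, -0.32 to 0.065 for Grik3, -0.80 to 0.070 for Grik4 and -0.11 to 0.13 for Grik5. The other ranges kept their sign but were wide: in FSL vehicle against FRL vehicle -0.27 to -0.094 for Gria3, -0.32 to -0.034 for Gria4 and -0.47 to -0.040 for Grik3; in responders against FSL vehicle 0.041 to 0.28 for Gria2, 0.089 to 0.29 for Gria3, 0.063 to 0.42 for Grik1, 0.053 to 0.23 for Grik2 and -0.43 to -0.0057 for Grik5; in non-responders against FSL vehicle 0.025 to 0.20 for Grik2 and 0.44 to 0.75 for Grik4; and in responders against non-responders 0.11 to 0.24 for Gria2, 0.087 to 0.25 for Gria3, 0.036 to 0.14 for Gria4 and 0.12 to 0.47 for Grik1. The number of correlated subunit pairs, 1 of 36, was 0 without the libraries high in Ttr and 0 to 3 with 1 library left out. The number of subunit and marker list pairs, 3 of 135, was 0 without the libraries low in Prox1 and 0 to 4 with 1 library left out. The r among the 8 libraries with lower CA3 sums was added after seeing the data. Over all genes, calls in FSL vehicle against FRL vehicle numbered 168 with DESeq2, 19 with pan-neuronal scaling, 5 with limma-voom, 2 in a fit of the compared groups or without the libraries low in Prox1, 17 without those high in Ttr, 21 at a threshold of 0.1, and 2 to 271 with 1 library left out. In responders against FSL vehicle the count of 0 became 186 with DESeq2, 36 without the libraries high in Ttr and 349 without FSL vehicle 1. The count of 0 in non-responders against FSL vehicle became 2 with DESeq2, and that in responders against non-responders 11 without the libraries high in Ttr. The 4-group test called 3 genes, against 184 with DESeq2, 27 without the libraries high in Ttr, 10 at a threshold of 0.1, 6 without a filter, 5 with DESeq2's size factors, 2 with the replicate block or without the libraries low in Prox1, and 2 to 98 with 1 library left out. Counts of 177 or more per subunit and library keep counting error small, and the number of libraries per group, 3, limits the intervals.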
